A study of Mus musculus with 9 samples.

Results

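Ribosome footprints on the genes of 39 lysosomal hydrolases, activators and lysosomal membrane proteins were compared between TTP-deficient macrophages that expressed GFP alone, GFP-TTP or GFP-TTP-AA. The 39 genes are a hand-made list of lysosomal proteins. They were chosen by function with the values of these same libraries known, in which the differences of Smpdl3a and Cpq already stood out, so that the differences of these genes are given as a description without a test. Each of the 39 was found by its gene name, among 16921 gene identifiers in all. RiboSeq counts ribosome-protected mRNA fragments per gene, and therefore the product of the amount of an mRNA and its occupation by ribosomes.

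Lysosomes are the acidic compartment in which cells degrade proteins, glycans, lipids and nucleic acids. Most of their hydrolases are made as glycosylated precursors in the endoplasmic reticulum, receive a mannose-6-phosphate tag in the Golgi and are carried to endosomes by receptors for that tag, while a proton pump, the V-ATPase, keeps the compartment acidic. In macrophages, lysosomes digest phagocytosed material and cut antigens and the invariant chain for presentation, and many lysosomal genes are switched on together by the MiT/TFE transcription factors. TTP, encoded by Zfp36, is an RNA-binding protein that binds AU-rich elements in 3′UTRs and promotes decay of the bound mRNA. The kinase MK2 phosphorylates TTP and thereby restrains it.

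All cells were immortalized bone marrow-derived macrophages (BMDMs) of TTP-deficient mice, and the 3 conditions were separate cell lines made by transduction with a doxycycline-inducible construct and sorted for GFP. The control line expressed GFP only, the second line GFP fused to TTP, and the third line GFP-TTP-AA, in which both serines targeted by MK2 are replaced by alanine. Every line, the GFP control included, received 1 µg/ml doxycycline for 6 h and 1 µg/ml LPS, a bacterial activator of macrophages, for the last 1 h. There were 3 libraries per condition, numbered 1 to 3. As each condition was a single line, differences between lines and effects of the expressed protein cannot be told apart. The 4 genes of chromosome Y that passed the filter had a median log2 difference of 1.74 from GFP-TTP to GFP-TTP-AA, and the cause was not tested.

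The deposited values are not observed counts. Each is the value that the authors' DESeq2 model fitted for a gene in a library, and the log2 values were the sum of a term for the condition, a term for the replicate number and a constant per library, up to a residual SD of 1.33e-15. The spread that replicates had around the model is therefore not in the values, and no test between conditions could be made from them. In place of a test, 3 measures are used. The first is the size of a difference, with 1.5-fold (0.585 on the log2 scale) as the limit above which a gene was counted. The second, given for the genes with the largest differences, is the counting SE, the error that Poisson counting of the fitted reads would give. The third is whether the 3 libraries of one condition all lay above those of the other, that is, whether the difference was larger than the range of the gene over the replicate numbers. This range is a term of the model that is the same in each condition and cancels in the differences. Overlap therefore describes the values of the libraries and is not an error of the difference, and it does not show that conditions were alike. The counting SE leaves out variation between cultures and so tends to be too small for genes with many reads. For genes with few reads, whose values the model draws together, it is not an error of the printed difference. The libraries summed to between 2570292 and 12804501 fitted reads.

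Levels are geometric means over the 3 normalised values of a condition. A filter on the mean value, of 10 or more, was passed by 10103 of all genes and 37 of the 39 lysosomal genes. The 2 others were Acp5, the tartrate-resistant acid phosphatase, at 0.581, 0.578 and 0.597 (here and below in the order GFP, GFP-TTP and GFP-TTP-AA), and Ctsh, a cathepsin with aminopeptidase activity, at 6.10, 5.92 and 10.4. Values of such weakly measured genes are drawn strongly together by the model. Among the 4834 genes of mean value under 1 the SD of the log2 difference from GFP-TTP to GFP-TTP-AA was 0.0396, where counting error alone would give a median of 2.31. A small difference of a gene with few reads is therefore no measurement of likeness.

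Zfp36 was examined as a check of the labels. The GFP libraries had a level of 459, those of GFP-TTP one of 927 and those of GFP-TTP-AA one of 1535, and no library of one condition overlapped another condition. The GFP-TTP level was 2.02-fold that of GFP, and the GFP line, TTP-deficient by its label, thus had Zfp36 footprints as well. Values per gene do not show where in the gene these lie. The check therefore bears on the GFP line against both lines with TTP and not on the deficiency. It cannot check the labels GFP-TTP and GFP-TTP-AA against each other, as the paper reports similar expression of both proteins. The cells also carried the footprints of macrophages. All 13 macrophage markers in the table were kept, with Lyz2, Cd14, Csf1r and Cd68 among the highest. The 4 fibroblast markers summed to at most 2.87 and the 3 lymphocyte markers to at most 0.897 in any library. Neutrophil markers summed to between 22.5 and 84.9, and the single marker of these above the filter was S100a8, which was 1.13 higher on the log2 scale in GFP-TTP-AA than in GFP-TTP, without overlap. In such bulk libraries fewer cells of a type and less RNA per cell cannot be told apart.

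Most of the lysosomal genes carried more footprints per codon than the median gene of these macrophages. Their values were 2.38% to 3.06% of the sum of a library. Values divided by the number of codons of the coding sequence allow levels of different genes to be compared, and on this scale the median of the 37 genes was 2.91 per codon against 0.446 for 9971 kept genes with a coding length. Of the 37, 15 were in the top 10 percent of all genes and only Cpq and Smpd1 were below the median.
Ctsb, the cysteine protease cathepsin B, had 92.3 per codon and stood at percentile 99.9. It was followed by Ctsk, the collagen-degrading cathepsin K, with 48.6 per codon, and by the aspartic protease Ctsd with 43.9 per codon. Then came Ctsz, a carboxypeptidase, with 41.1 per codon and Psap, the precursor of the saposins, with 32.3 per codon. The high level of Ctsk stood beside a near absence of Acp5, although both are known as osteoclast genes. The 6 osteoclast markers of the table other than these summed to between 409 and 509 per library. By mean value Nfatc1 was the highest of them with 264. Atp6v0d2, which also stands in the list of V-ATPase subunits below, had 86.1, Mmp9 76.3 and Dcstamp 11.4. Itgb3 and Ocstamp were below the filter.
The sulfatase Galns, the heparan sulfate glycosidase Naglu and the calcium channel Mcoln1 were close to the median of all genes, with 0.503, 0.502 and 0.498 per codon.

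**Figure D1:**
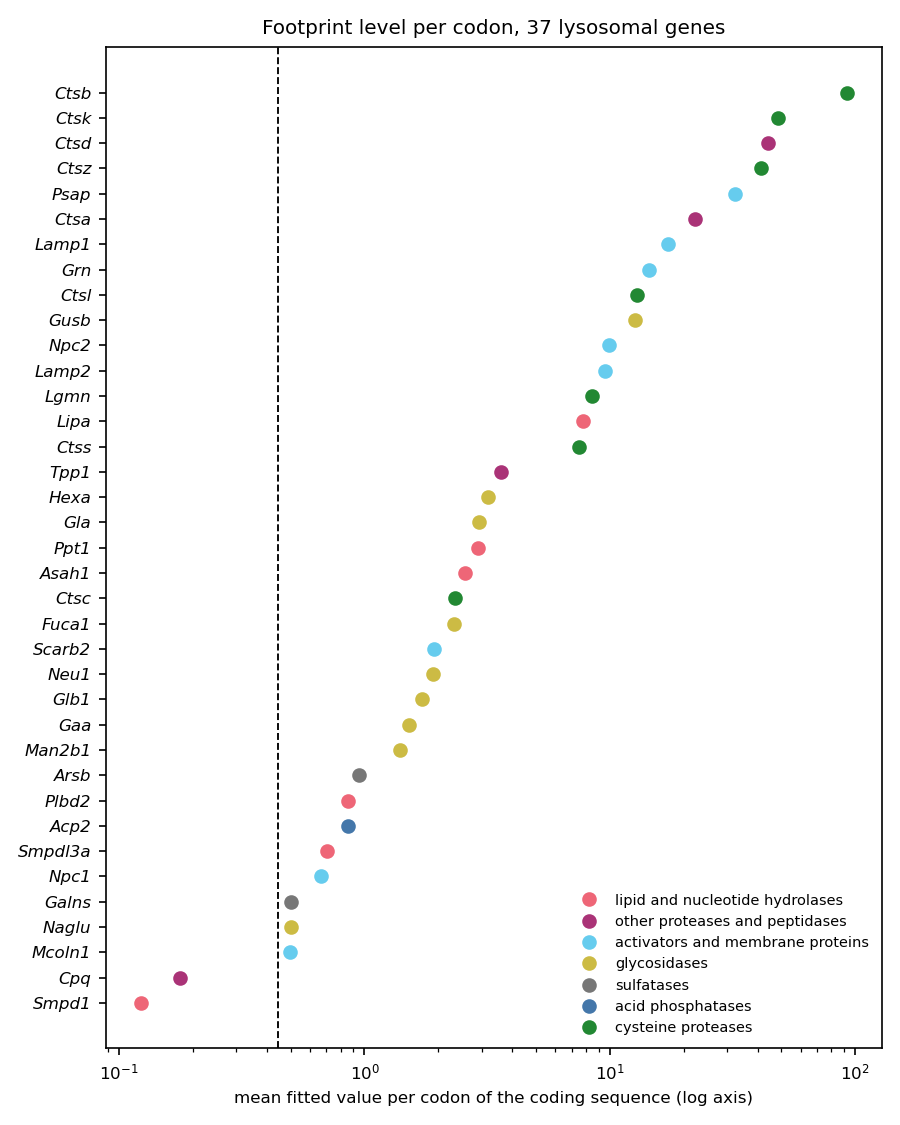
Mean fitted value per codon of the coding sequence over the 9 libraries, on a log axis, for each of the 37 lysosomal genes above the filter. Colours give the role and the dashed line is the median of all kept genes, 0.446. Proteases and activators fill the top of the scale, from Ctsb at 92.3, and only Cpq and Smpd1 lie left of the line.

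GFP-TTP and GFP macrophages were compared for footprints on lysosomal genes after 6 h of doxycycline, with LPS for the last 1 h. As every library had LPS, differences that arose before and after its addition cannot be told apart. Most of the genes were somewhat lower in GFP-TTP. The median log2 difference of the 37 genes was -0.16 with 31 genes below 0 and 6 above, and that of all 10103 kept genes was 0.00. Without Cpq and Smpdl3a the median was the same, -0.16. At least 1.5-fold lower were 3 of the 37, Cpq, Smpdl3a and Ctss, where 1.81% of all kept genes were, and 0 were 1.5-fold higher, where 0.950% of all were. The libraries did not overlap in 13 genes that were lower in GFP-TTP (13.0% of all kept genes) and in 0 that were higher (12.6% of all kept genes).

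In GFP-TTP-AA compared to GFP macrophages the genes scattered to both sides. Their median was 0.02, with 20 genes above 0 and 17 below, and the median of all kept genes was 0.01. Smpdl3a was the 1 gene that was at least 1.5-fold higher (2.23% of all kept genes), and 0 were 1.5-fold lower (1.35% of all kept genes). Libraries without overlap were seen for 9 higher genes (13.5% of all kept genes) and for 4 lower ones (13.4% of all kept genes).

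GFP-TTP-AA and GFP-TTP macrophages were compared to see what the phosphorylation sites of TTP change. These lines also differed in Zfp36 footprints, by 0.73 on the log2 scale. Here the median of the 37 genes was 0.15, with 29 above and 8 below 0, beside 0.00 for all kept genes. The genes Smpdl3a, Cpq, Ctss and Npc2 were at least 1.5-fold higher in GFP-TTP-AA, 4 of the 37 where 4.35% of all kept genes were. The count in the opposite direction was 0, where 2.47% of all kept genes were at least 1.5-fold lower. The libraries were apart in 16 genes that were higher (17.2% of all kept genes) and in 4 that were lower (17.2% of all kept genes). The 3 comparisons share libraries and are not independent of each other.
The medians of the 13 macrophage markers, of which Cd68 also stands in a list of lysosomal membrane proteins below, had the same sign as those of the lysosomal genes. Their median difference was -0.17 between GFP-TTP and GFP, with 11 of 13 below 0. Between GFP-TTP-AA and GFP it was 0.16, with 9 of 13 above 0, where the lysosomal genes were at 0.02. It was 0.34 from GFP-TTP to GFP-TTP-AA, with 12 of 13 above 0 and Mrc1 below (-0.44). In that comparison 5 of the 13 were at least 1.5-fold higher (4.35% of all kept genes) and 0 lower (2.47%). The summed value of the markers per library was 98808 to 117016 in GFP, 79299 to 92938 in GFP-TTP and 115231 to 136774 in GFP-TTP-AA. Most of this sum was Lyz2, with levels of 64027, 46012 and 71386. What part the differences of the markers have in those of the lysosomal genes was not tested.

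**Figure D2:**
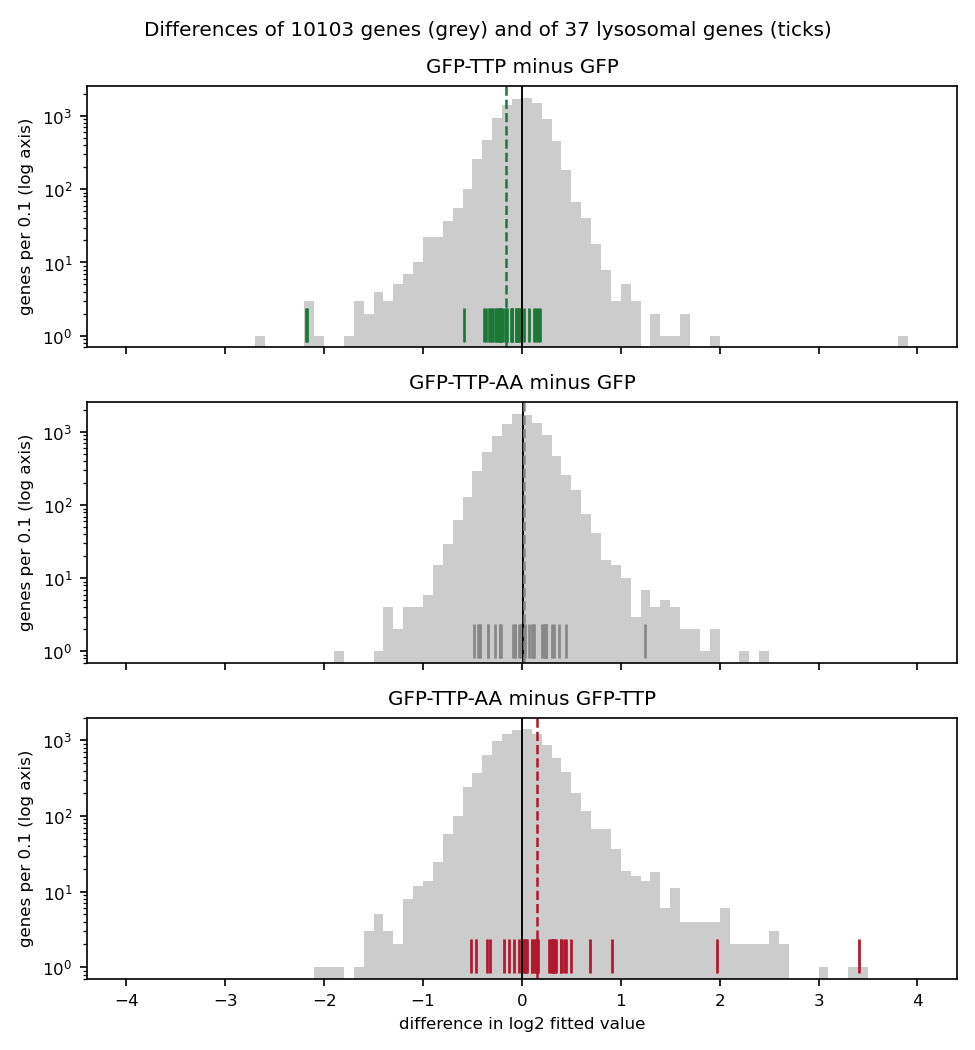
Number of genes per 0.1 of log2 difference (grey, log axis) for all 10103 kept genes in the 3 comparisons, with the 37 lysosomal genes as ticks. The black line is the median of all genes and the dashed line that of the lysosomal genes, which lies at -0.16, 0.02 and 0.15 from top to bottom, while a pair of ticks at the left of the top panel, Cpq and Smpdl3a, stands far from the rest.

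**Figure D3:**
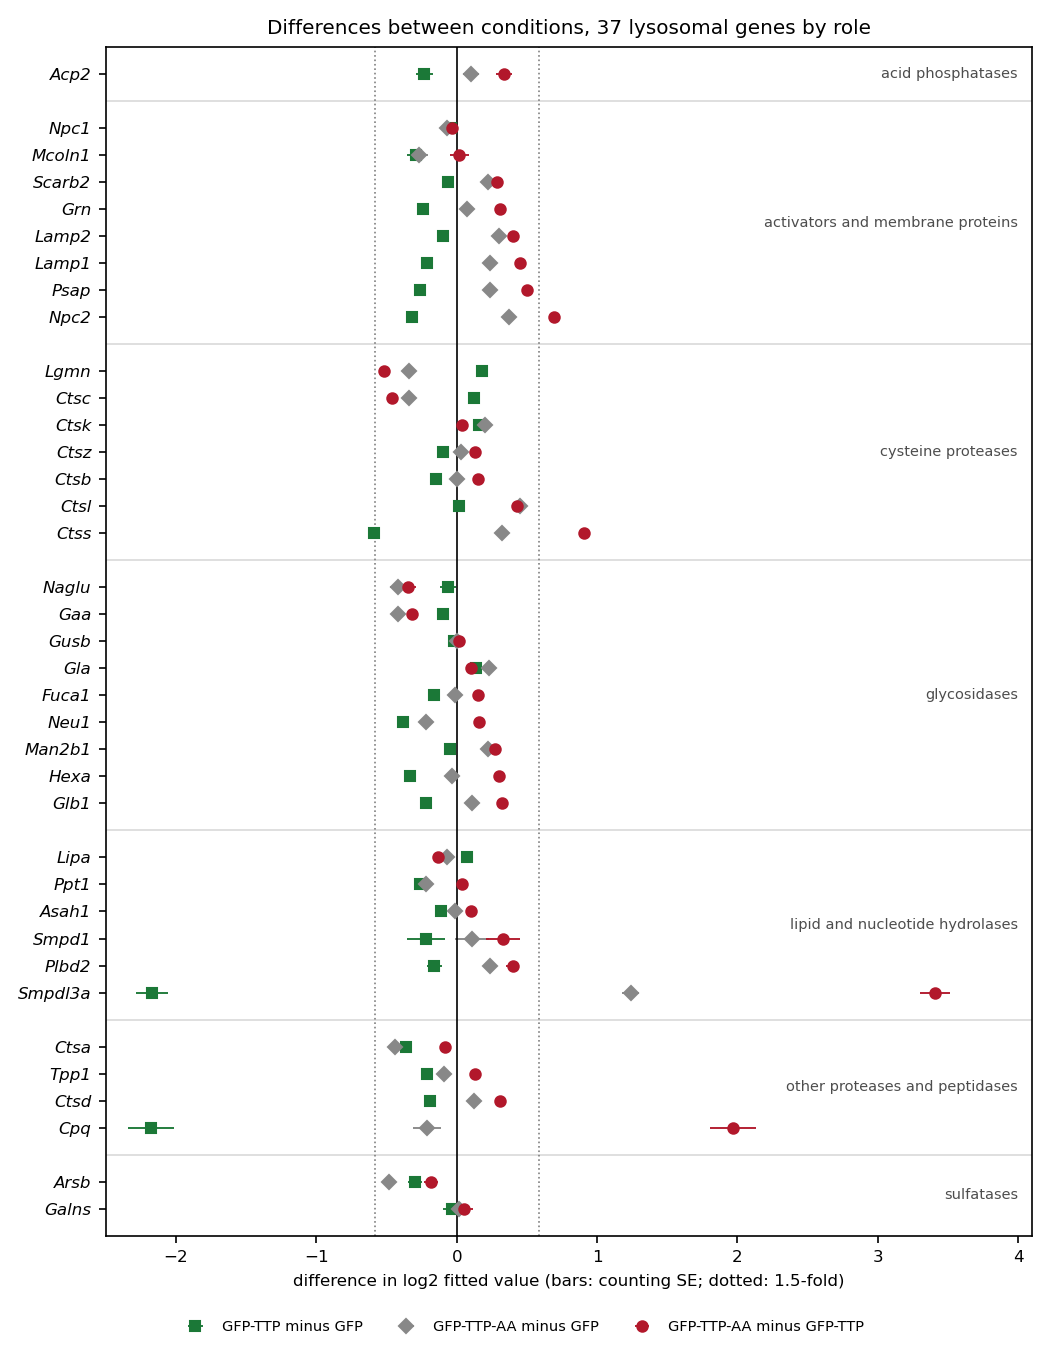
Log2 differences of the 37 genes, ordered by role, for GFP-TTP minus GFP (squares), GFP-TTP-AA minus GFP (diamonds) and GFP-TTP-AA minus GFP-TTP (circles). Horizontal bars are counting SEs and dotted lines mark 1.5-fold. Smpdl3a reaches -2.17 and 3.41 and Cpq -2.18 and 1.97, and most other symbols lie between the dotted lines.

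Smpdl3a encodes a secreted and lysosomal phosphodiesterase related to acid sphingomyelinase that cleaves nucleotides. The gene is on the plus strand at chr10:57794335-57811830 of GRCm38. Its normalised values in replicates 1, 2 and 3 were 273, 274 and 241 in GFP, 60.8, 60.9 and 53.3 in GFP-TTP, and 649, 647 and 568 in GFP-TTP-AA. Each GFP-TTP library was below each GFP library, and each GFP-TTP-AA library was above both. The levels were 262, 58.3 and 620. It was 4.50-fold lower in GFP-TTP than in GFP (log2 difference -2.17, counting SE 0.114) and 2.37-fold higher in GFP-TTP-AA than in GFP (1.24, counting SE 0.0587). From GFP-TTP to GFP-TTP-AA it differed 10.6-fold (3.41, counting SE 0.107), the largest difference of all 10103 kept genes in that direction. The median over chromosome 10 was 0.17 in this comparison, and with it subtracted the difference was 3.24.
Cpq encodes a secreted carboxypeptidase that is also found in lysosomes (chr15:33083129-33594552). Its values were 143, 111 and 105 in GFP, 31.6, 24.5 and 23.1 in GFP-TTP, and 124, 95.6 and 90.5 in GFP-TTP-AA. The GFP-TTP libraries were all below the others, and those of GFP and GFP-TTP-AA overlapped. The levels were 119, 26.1 and 102. It was 4.54-fold lower in GFP-TTP than in GFP (-2.18, counting SE 0.166), 3.92-fold higher in GFP-TTP-AA than in GFP-TTP (1.97, counting SE 0.164), and 1.16-fold lower in GFP-TTP-AA than in GFP (-0.21, counting SE 0.101). Exons of Cpq share 160 bases with an antisense gene, 4930592A05Rik. Unlike Smpdl3a, Cpq did not exceed the control in the mutant line.

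**Figure D4:**
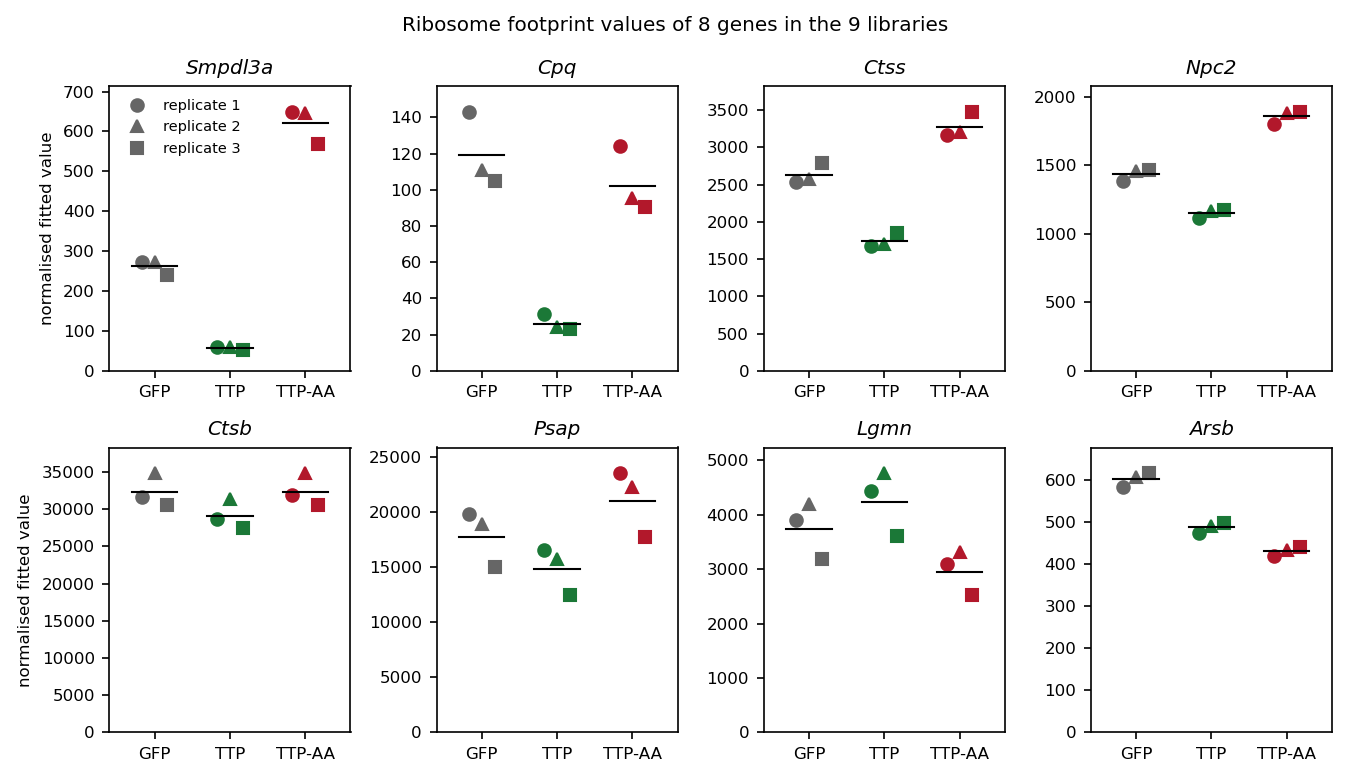
Normalised fitted values of 8 genes in the 9 libraries, on axes that start at 0. Symbols are replicates 1 to 3 and bars the level of the condition. Smpdl3a and Cpq are lowest in GFP-TTP at 58.3 and 26.1, Ctss and Npc2 show smaller steps in the same order as Smpdl3a, Ctsb and Psap move with the replicate number, and Lgmn and Arsb are lowest in GFP-TTP-AA.

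The cysteine proteases, 7 kept genes, had no common direction. Their median difference was 0.02 between GFP-TTP and GFP and 0.13 from GFP-TTP to GFP-TTP-AA, where it ranged from -0.52 to 0.91.
Ctss, the cathepsin that cuts the invariant chain in antigen-presenting cells, was the most different of them. Its values were 2531, 2576 and 2796 in GFP, 1683, 1707 and 1848 in GFP-TTP, and 3165, 3200 and 3476 in GFP-TTP-AA. None of the 3 conditions overlapped, at levels of 2632, 1745 and 3277. The log2 difference was -0.59 between GFP-TTP and GFP (counting SE 0.0249), 0.32 between GFP-TTP-AA and GFP (counting SE 0.0206) and 0.91 from GFP-TTP to GFP-TTP-AA (counting SE 0.0228). Ctss lies at chr3:95526786-95556403, and chromosome 3 had a median of -0.18 between GFP-TTP and GFP. With that median subtracted the difference of Ctss was -0.42 and below 1.5-fold, while the one from GFP-TTP to GFP-TTP-AA was 0.83.
Its neighbour Ctsk (chr3:95499256-95509362) had levels of 14509, 16192 and 16626, and its libraries overlapped in every comparison. The log2 difference of Ctsk was 0.16 between GFP-TTP and GFP, the opposite sign to that of Ctss.
Ctsl, cathepsin L, had levels of 3825, 3878 and 5218, and its GFP-TTP-AA libraries were above all others. Annotated exons of Ctsl share 395 bases with those of a processed pseudogene on the same strand, Gm49230. They share 1742 bases with those of an antisense gene, Gm47123. Whether these overlaps changed the counts of Ctsl was not tested.
Lgmn, the asparagine-specific endopeptidase legumain that activates several cathepsins, ran in the opposite direction. Its values were 3906, 4198 and 3192 in GFP, 4443, 4761 and 3611 in GFP-TTP, and 3099, 3309 and 2518 in GFP-TTP-AA. The GFP-TTP-AA libraries were all below those of GFP-TTP (-0.52, counting SE 0.018) and overlapped those of GFP, at levels of 3741, 4243 and 2955. Lgmn and Npc2 lie on chromosome 12, whose median was 0.11 in that comparison, and with it subtracted Lgmn was at -0.64 and past 1.5-fold.
Ctsc, the dipeptidyl peptidase that activates granule proteases, had levels of 1113, 1210 and 880 and a difference of -0.46 from GFP-TTP to GFP-TTP-AA, with overlapping libraries.
Ctsb had values of 31658, 34805 and 30540 in GFP, 28634, 31383 and 27470 in GFP-TTP, and 31871, 34801 and 30561 in GFP-TTP-AA. These overlapped between all conditions, at levels of 32285, 29117 and 32363, and the level in GFP-TTP was 1.11-fold lower than in GFP. Exons of Ctsb share 774 bases with those of Fdft1 on the opposite strand. Ctsz, which was at 12755, 11913 and 13022, was lower in GFP-TTP than in both other conditions without overlap, by 0.10 against GFP and 0.13 against GFP-TTP-AA. Its range over the replicate numbers was 0.07, so that a small difference was enough for libraries without overlap.

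Besides Cpq, the other proteases and peptidases were Ctsd, Ctsa and Tpp1. Ctsd, cathepsin D, had values of 18615, 19848 and 16257 in GFP, 16344, 17373 and 14195 in GFP-TTP, and 20253, 21448 and 17581 in GFP-TTP-AA. The GFP-TTP-AA libraries were above those of GFP-TTP (0.31, counting SE 0.00812), and both overlapped the GFP libraries. The levels were 18178, 15915 and 19693. An annotated gene on the same strand, Gm49369, shares 808 exon bases with Ctsd.
Ctsa, the carboxypeptidase that also stabilises the sialidase and β-galactosidase, had levels of 12891, 10025 and 9479. It was lower in both lines with TTP than in GFP, with log2 differences of -0.36 (counting SE 0.0107) and -0.44 (counting SE 0.0105). Its libraries overlapped, as it ranged by 0.50 over the replicate numbers. Tpp1, a tripeptidyl peptidase, was at 2156, 1859 and 2029 with overlap in all comparisons.

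The 9 glycosidases, which remove sugars from glycans and glycolipids, had a median of -0.10 between GFP-TTP and GFP and of 0.15 from GFP-TTP to GFP-TTP-AA. None was 1.5-fold different in any comparison (0 of 9), where 0.950% to 4.35% of all kept genes were, by comparison and direction.
Gusb, β-glucuronidase, was the most abundant of them. Its values were 9010, 8934 and 6949 in GFP, 8899, 8797 and 6825 in GFP-TTP, and 9023, 8887 and 6918 in GFP-TTP-AA. The levels were 8239, 8114 and 8217, with differences between -0.02 and 0.02, and replicate 3 was the lowest in each.
Hexa, the α-subunit of β-hexosaminidase, was at 1816, 1446 and 1782, and its GFP-TTP libraries were below both others (-0.33 against GFP). Glb1, β-galactosidase, was at 1132, 974 and 1218, and was higher in GFP-TTP-AA than in GFP-TTP without overlap (0.32). Neu1, the sialidase, was at 885, 681 and 759, with GFP-TTP below GFP without overlap (-0.38).
Naglu and Gaa differed in another way, being lowest in GFP-TTP-AA. Naglu was at 411, 393 and 308, with the GFP-TTP-AA libraries below all others. Gaa, the acid α-glucosidase that degrades glycogen, was at 1601, 1497 and 1199, with GFP-TTP-AA libraries below those of GFP (-0.42) and overlapping those of GFP-TTP. Both lie on chromosome 11, whose median was -0.11 from GFP-TTP to GFP-TTP-AA.
The remaining 3 glycosidases overlapped in all comparisons. The α-galactosidase Gla was at 1122, 1232 and 1317. The α-mannosidase Man2b1 was at 1348, 1301 and 1571, and the fucosidase Fuca1 at 1082, 969 and 1072.

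Both sulfatases remove sulfate from glycosaminoglycans. Arsb had values of 584, 608 and 616 in GFP, 474, 492 and 497 in GFP-TTP, and 420, 435 and 441 in GFP-TTP-AA. No conditions of Arsb overlapped, and the order of its levels, 602, 488 and 432, with GFP highest and GFP-TTP-AA lowest, was unlike that of Smpdl3a and Ctss. The log2 difference between GFP-TTP-AA and GFP was -0.48 (counting SE 0.0487). Exons of Arsb share 1948 bases with the opposite-strand lincRNA Gm26527. Galns was at 261, 255 and 264 with overlap in all comparisons.

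Among the lipid and nucleotide hydrolases other than Smpdl3a, Lipa, the acid lipase that frees cholesterol from its esters, was the most abundant. Its values were 3013, 3192 and 3005 in GFP, 3165, 3342 and 3139 in GFP-TTP, and 2888, 3039 and 2863 in GFP-TTP-AA. The levels were 3069, 3214 and 2929. The GFP-TTP-AA libraries were below those of GFP-TTP by 0.13, the smallest difference among the 4 genes that were lower without overlap.
Smpd1, the acid sphingomyelinase and a relative of Smpdl3a, was at 79.1, 67.8 and 85.2. Its order of conditions was that of Smpdl3a and its libraries did not overlap, but the differences were small. They were -0.22 between GFP-TTP and GFP (counting SE 0.134) and 0.33 from GFP-TTP to GFP-TTP-AA (counting SE 0.124). The difference between GFP-TTP-AA and GFP, 0.11, was below its counting SE of 0.122. Plbd2, which resembles phospholipase B, was at 498, 445 and 587 in the same order and without overlap. The acid ceramidase Asah1 was at 1045, 965 and 1034, and the thioesterase Ppt1, which removes palmitate from proteins, was at 990, 826 and 851. Both overlapped in all comparisons.
Acp2, the lysosomal acid phosphatase, had values of 369, 368 and 375 in GFP, 314, 313 and 318 in GFP-TTP, and 398, 395 and 402 in GFP-TTP-AA. It had the narrowest range over the replicate numbers, 0.03, and no conditions overlapped at levels of 370, 315 and 398 (-0.23 between GFP-TTP and GFP and 0.34 from GFP-TTP to GFP-TTP-AA).

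The activators, cholesterol transporters and membrane proteins had a median of -0.22 between GFP-TTP and GFP, with 8 of 8 below 0, and of 0.35 from GFP-TTP to GFP-TTP-AA, with 7 of 8 above 0.
Npc2, the soluble carrier that hands cholesterol from the lumen to the membrane protein Npc1, was the most different of them. Its values were 1388, 1456 and 1464 in GFP, 1118, 1169 and 1172 in GFP-TTP, and 1802, 1878 and 1889 in GFP-TTP-AA. None of the conditions overlapped. The levels were 1436, 1153 and 1856. Npc2 was 1.61-fold higher in GFP-TTP-AA than in GFP-TTP (0.69, counting SE 0.0288), and with the median of chromosome 12 subtracted the difference was 0.57 and below 1.5-fold. Npc1, its partner in cholesterol export, was at 872, 846 and 832, with differences between -0.07 and -0.03 and overlap in all comparisons.
Psap had values of 19781, 18862 and 14984 in GFP, 16545, 15728 and 12464 in GFP-TTP, and 23482, 22239 and 17681 in GFP-TTP-AA. Its levels were 17748, 14802 and 20979. It was 0.50 higher in GFP-TTP-AA than in GFP-TTP without overlap, the next below Npc2, and overlapped in both comparisons with GFP. Grn, the precursor of the granulins, was at 9061, 7661 and 9495, with GFP-TTP below both others.
The major membrane glycoproteins moved alike. Lamp1 was at 6844, 5929 and 8093 and Lamp2 at 3742, 3492 and 4604. In both, the GFP-TTP-AA libraries were above all others, by 0.45 and 0.40 against GFP-TTP. The receptor Scarb2, which carries β-glucocerebrosidase to lysosomes, was at 876, 839 and 1023 with overlap. Mcoln1 was at 326, 267 and 271, lower than GFP in both lines with TTP and without overlap.

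The libraries of 14 of the 37 genes overlapped in all 3 comparisons, 37.8% against 53.6% of all kept genes. In fitted values a gene overlaps where its difference between conditions is no larger than its range over the replicate numbers. Overlap thus depends on both. The range had a median of 0.26 on the log2 scale in the 37 genes (0.29 over all kept genes). Replicate 3 was lower than replicate 1 by a median of 0.18 in the lysosomal genes and 0.01 in all kept genes. The model gives this step equally to each condition, and it cancels in the differences.

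TTP binds AU-rich elements, and the 3′UTRs of the 39 genes were searched for TATTTAT in the GENCODE vM21 transcript with the longest coding sequence. It was found in 6 genes, once in each, that is in 15.4% of the 39, and in 28.7% of 9893 kept genes with a 3′UTR. The median 3′UTR was shorter in the lysosomal genes, 868 against 1028 nt, and per kilobase there were 0.126 motifs against 0.290. The shorter ATTTA, which TATTTAT contains, was found in 22 genes or 56.4%, against 68.2% of the kept genes. The 6 sites are shown in 5′ to 3′ direction of the mRNA, as DNA, with the motif in capitals, because they are the sequences in these genes nearest to the known binding preference of TTP.
Asah1 (chr8:41340792-41340821, minus strand): agaaatcaatgTATTTATgaaaactgcaaa
Ctsb (chr14:63144812-63144841, plus strand): ctacccctttaTATTTATtcatgcagttta
Mcoln1 (chr8:3515093-3515122, plus strand): ggaccccagctTATTTATttttagaatttg
Neu1 (chr17:34935262-34935291, plus strand): gcacctttgatTATTTATgaatcgaaatat
Npc2 (chr12:84756241-84756270, minus strand): ttcctcgttttTATTTATaccagctagact
Plbd2 (chr5:120483897-120483926, minus strand): ctataaatataTATTTATtttttatttaca
Of these genes, Mcoln1, Neu1, Npc2 and Plbd2 were lower in GFP-TTP than in GFP without overlap, as were 13 of the 37 genes and 13.0% of all kept genes, and Asah1 and Ctsb overlapped. Against GFP-TTP, the difference of GFP-TTP-AA was 0.69 for Npc2, 0.40 for Plbd2, 0.16 for Neu1, 0.15 for Ctsb, 0.10 for Asah1 and 0.02 for Mcoln1. The genes with the largest differences, Smpdl3a, Cpq and Ctss, held 0 such motifs in 3′UTRs of 315, 295 and 218 nt. Of the shorter ATTTA, Smpdl3a held 1, Cpq 2 and Ctss 0.

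Promoters were searched for the E-box core of the CLEAR element, the motif that TFEB, TFE3 and MITF bind in lysosomal genes. RefSeq windows of GRCm38.p6 from 250 bases before to 50 after a gene's start were matched for 31 of the 39 genes, and those of Asah1, Cpq, Ctsb, Ctsh, Galns, Npc1, Plbd2 and Smpdl3a were not. Both motifs read the same on both strands, and the longer one, TCACGTGA, contains the shorter, CACGTG. The shorter motif was found in 10 of the 31 genes (32.3%), where it was found in 8.09% of 27025 genes with a window and in 12.6% of 7744 kept genes with one. The longer one was found in 4 of the 31 (12.9%), against 1.12% of all and 2.45% of the kept genes. The windows with TCACGTGA are given on the strand of the gene, with the motif in capitals, because it is the longer of the motifs searched. Bases of the CLEAR element beyond this core were not searched for.
Ctsa, first motif (chr2:164833749-164833778, plus strand): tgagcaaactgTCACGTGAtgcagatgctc
Ctsa, next motif (chr2:164833766-164833795, plus strand): gatgcagatgcTCACGTGAccagagctaca
Ctsd (chr7:142387908-142387937, minus strand): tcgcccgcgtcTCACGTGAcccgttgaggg
Gla, first motif (chrX:134601215-134601244, minus strand): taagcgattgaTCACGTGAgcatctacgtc
Gla, next motif (chrX:134601182-134601211, minus strand): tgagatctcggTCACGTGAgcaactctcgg
Mcoln1 (chr8:3500462-3500491, plus strand): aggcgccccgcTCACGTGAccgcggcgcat
The 4 genes with the longer motif did not share a direction. From GFP-TTP to GFP-TTP-AA, Ctsd was higher by 0.31, Gla by 0.10 and Mcoln1 by 0.02, and Ctsa was lower by 0.08. CACGTG without the flanking bases was found in Ctsl, Gaa, Glb1, Lamp1, Lgmn and Naglu, of which Lamp1 held 4 copies in 1 window. These too had both signs in that comparison, from 0.45 in Lamp1 to -0.52 in Lgmn.

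The rest of the lysosomal machinery was described from lists of genes that are no members of the 39. The genes past 1.5-fold named from these short lists stand beside shares of 0.950% to 4.35% of all kept genes, by comparison and direction. Among 29 other lysosomal enzymes and activators the median was -0.14 between GFP-TTP and GFP and 0.13 from GFP-TTP to GFP-TTP-AA, beside -0.16 and 0.15 for the 37 genes. Lower in GFP-TTP than in GFP by at least 1.5-fold were Sgsh, a heparan sulfatase, with -0.69, and the cathepsin Ctso with -0.60. Sgsh was also lower in GFP-TTP-AA than in GFP (-0.70). The libraries of Ctso did not overlap between GFP-TTP and GFP, and those of Sgsh, which ranged by 0.80 over the replicate numbers, overlapped in all comparisons. Ids, a sulfatase of dermatan and heparan sulfate, and Epdr1, a lipid-binding lysosomal protein, were higher in GFP-TTP-AA than in GFP-TTP without overlap, by 0.88 and 0.68.
Among 28 other lysosomal membrane proteins the medians were -0.09 and 0.16. The metal transporter Slc11a1, known for resistance to intracellular bacteria, was 0.84 higher in GFP-TTP-AA than in GFP-TTP without overlap, and 0.60 higher than in GFP with overlap. The tetraspanin Cd63 and Tmem192 were higher in GFP-TTP-AA than in GFP-TTP by 0.61 and 0.59, without overlap. The peptide transporter Slc15a3 was 0.67 higher in GFP-TTP-AA than in GFP, and Mfsd8, a lysosomal transporter, was lower in GFP-TTP than in GFP (-0.66), both without overlap.
The 18 kept subunits of the V-ATPase had medians of -0.21 and 0.16, with 15 of 18 below 0 between GFP-TTP and GFP. The 1 subunit past 1.5-fold was Atp6v0d2, which was lower in GFP-TTP-AA than in GFP-TTP without overlap (-0.61), against the sign of the list's median.
Of the 15 sorting genes, whose medians were -0.04 and 0.24, only Sort1, a sorting receptor, passed 1.5-fold. Sort1 was at 257, 241 and 128, a log2 difference of -1.01 against GFP and -0.91 against GFP-TTP, without overlap. The mannose-6-phosphate receptors were at 3900, 4639 and 3491 for Igf2r and at 1663, 1564 and 1869 for M6pr, both with overlap in all comparisons.
Among 20 MiT/TFE factors and regulators of mTORC1 the medians were -0.04 and 0.05, and Tfe3 and Fnip2 were higher in GFP-TTP-AA than in GFP-TTP without overlap, by 0.60 and 0.69. Tfe3 was at 451, 403 and 610. Of the other MiT/TFE factors, Tfeb was at 93.3, 116 and 80.4 and overlapped in all comparisons. Mitf was at 261, 237 and 205 and was below GFP without overlap in GFP-TTP-AA only. Tfec was highest in GFP-TTP-AA, at 203, 244 and 292, with overlap in all comparisons.
The 6 kept inhibitors of cathepsins had medians of -0.27 and 0.32. Cstb, the cytosolic inhibitor of cathepsins B, L and S, was at 5091, 3069 and 5500, a log2 difference of -0.73 between GFP-TTP and GFP and of 0.84 from GFP-TTP to GFP-TTP-AA, both without overlap.

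**Figure D5:**
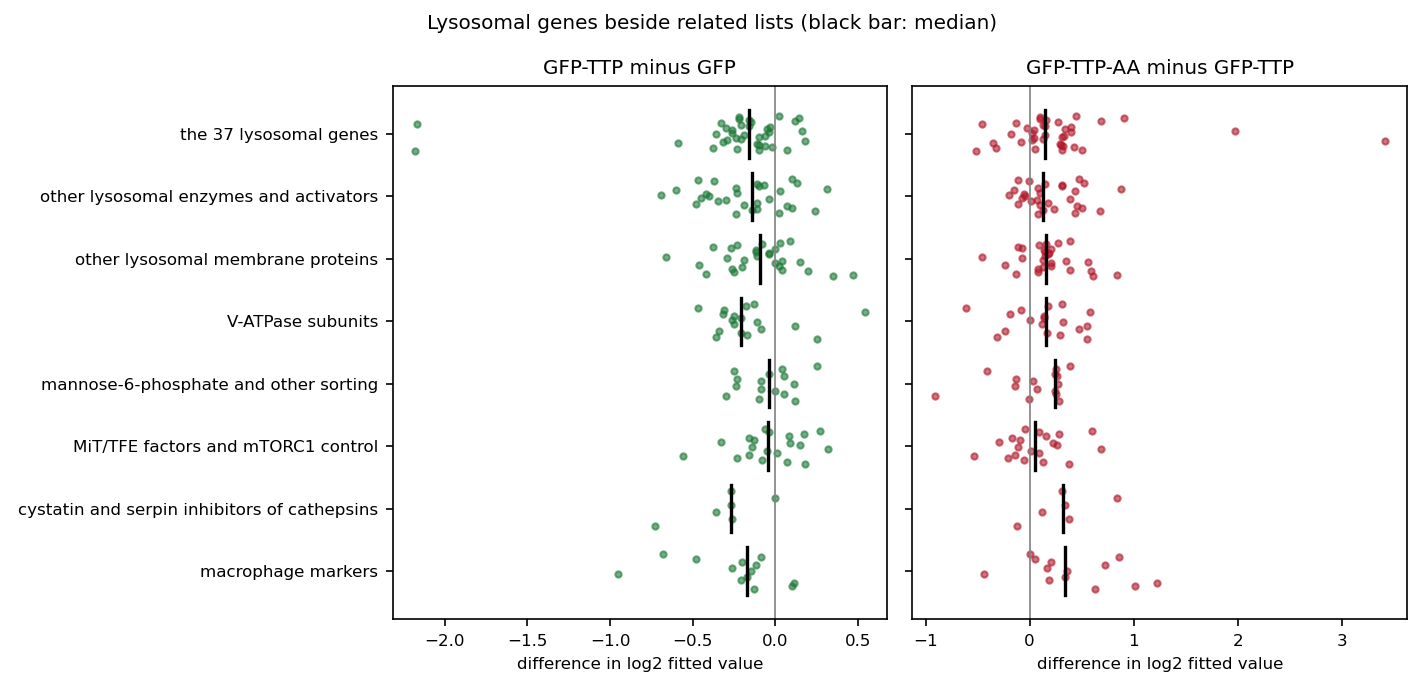
Log2 differences of single genes (points) and medians (black bars) for the 37 lysosomal genes, for the 6 lists of related genes and for the macrophage markers, in GFP-TTP minus GFP (left) and GFP-TTP-AA minus GFP-TTP (right). The medians lie between -0.27 and -0.04 on the left and between 0.05 and 0.34 on the right, with the lysosomal genes at -0.16 and 0.15.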

How the data were processed

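RiboSeq libraries were made by the authors with the ARTseq kit, and per the submitters' processing notes the tools were Trim Galore, TopHat2 2.0.12, HTSeq and DESeq2 1.6.3 on GRCm38 (mm10). Up to 2 alignments per read were kept in mapping. How reads with several alignments, such as those of close paralogs and pseudogenes, were counted is not given in the sources used here. Whether strand was used in counting is not given in the sources used here. Exons of 16 of the 39 genes overlap those of another gene, 13 of them on the opposite strand only, and not all of these overlaps are named above. These overlaps are those of GENCODE vM21, whereas the paper names another annotation for its mapping. Whether the overlapping genes were part of that annotation was not checked.

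The deposited table holds a signal, the fitted value of the authors' DESeq2 model on the scale of reads, in 16932 lines for 16921 identifiers (11 lines are repeats and 1 has no name). Only it and the authors' mean observed normalised count per gene were used. The fitted mean was 0.827 to 1.01 times that observed mean for the 38 lysosomal genes that have one. Fitted and observed means were 314 and 341 for Smpdl3a and 83.2 and 91.5 for Cpq, so that both were fitted below what was observed. In which libraries the fit departed cannot be seen, and all folds given are those of fitted values. The authors' deposited comparison tables also hold fold changes, standard errors, statistics and p-values, which were not used. RNASeq and iCLIP were not analysed here.

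Library factors (0.415 to 2.12) were the median ratio to the geometric mean of each gene. Values were divided by them and log2-transformed without a pseudocount, as there are 0 zeros. Differences were taken between condition means. Fitted values leave no residual spread, so that no test was run. The counting SE came from the summed fitted reads of each condition, and its median over the 37 genes was 0.029 to 0.032. Depth as observed reads is unknown. The libraries of a condition are not stated to be separate cultures. The authors' model held terms for the library date and the condition. The deposited values were exactly additive in the replicate number, so that libraries with the same number share the date term and the numbers pair the libraries.

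The members, the gene lists and the rules were chosen with earlier results of these data known. Every member is named with its 3 levels, given in the order GFP, GFP-TTP, GFP-TTP-AA. Values in each library are given for members at least 2-fold different, for the highest of each role and for Ctss, Npc2 and Lgmn. Ctss and Npc2 were added because they were past 1.5-fold, and Lgmn after its values were seen. Related genes past 1.5-fold are named. Igf2r, M6pr, Tfeb, Mitf, S100a8 and the macrophage markers were added for their role. Coordinates and codons were taken from GENCODE vM21 on the same build, promoters from RefSeq. The steps were tested on simulated data and run in Python 3.11.15 with numpy 2.4.6, pandas 2.3.3 and matplotlib 3.10.9.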

Additional observations from a re-analysis of the deposited data

How the results depend on the processing

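The counts of genes past 1.5-fold and the medians of the lysosomal genes were recomputed with other scalings, filters, a pseudocount of 10, a limit of 2-fold, chromosome medians subtracted and without each replicate. No sign changed in the 99 recomputed values. In 95 of them counts stayed within 1.5 times and medians within the median counting SE, 0.029 to 0.032, of the reported value. The 95 include the values without a replicate and with the replicate number as a block. Those equal the reported values by construction and add nothing to this tally. Without a filter 2 genes instead of 1 were higher in GFP-TTP-AA than in GFP, and 5 instead of 4 were higher than in GFP-TTP, as Ctsh was added. With a limit of 2-fold, 2 instead of 4 were higher in GFP-TTP-AA than in GFP-TTP and 2 instead of 3 lower in GFP-TTP than in GFP. With chromosome medians subtracted these counts were 3 and 2, as Npc2 and Ctss were lost, 1 gene, Lgmn, was lower by 1.5-fold from GFP-TTP to GFP-TTP-AA, and the median there was 0.19 instead of 0.15. Over the alternatives the median lay between -0.18 and -0.16 for GFP-TTP against GFP and between 0.01 and 0.04 for GFP-TTP-AA against GFP. For genes with fewer reads, such as Smpd1, the counting SE exceeded 0.1.

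Leaving out replicate 1, 2 or 3 gave the same values as all libraries, because the fitted values are additive. The counts past 1.5-fold were 0 higher and 3 lower in GFP-TTP against GFP, 1 and 0 in GFP-TTP-AA against GFP, and 4 and 0 in GFP-TTP-AA against GFP-TTP, and the medians were -0.16, 0.02 and 0.15. With the replicate number as a block the same counts and medians were obtained, also by construction. This says nothing about the stability of the results over replicates.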
